A study of Mus musculus with 15 samples.

Results

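Crystallin genes were followed through mouse optic tissue grown from embryonic stem cells. The 10 entries of the expression table whose gene symbol was Cryaa, Cryab, Cryba1, Cryba2, Cryba4, Crybb1, Crybb2, Crybb3, Crygs or Crym were taken, 10 of 23244 entries in all, and every one of the 10 symbols was present. The tissue was made with SFEBq, a culture in which dissociated embryonic stem cells reaggregate in serum-free medium and form optic epithelium on their own. In 15 RNA-seq libraries, 5 groups of 3 biological replicates each were measured. The Day 10 Rx::GFP+ group was neural retina epithelium collected by forceps at Day 10. At Day 12 and Day 15, the +Fgf groups were explants of that epithelium kept in retinal maturation medium with 5 ng/mL human bFgf and 10% FBS, and they are labelled neural retina. The +Wnt groups of the same days were explants kept with CHIR99201, an inhibitor of GSK3 that stimulates Wnt/β-catenin signalling, at 3 µM for the first 24 hours and 1 µM afterwards, and they are labelled retinal pigmented epithelium. All 15 libraries came from 1 embryonic stem cell line, EB5 Rx::GFP+/-, which carries GFP at the eye field gene Rx, had been held in 2i medium (itself containing CHIR99201) with LIF, and had received Matrigel. Because serum was given with bFgf and not with CHIR99201, serum and the signalling treatments cannot be told apart in any comparison of +Fgf with +Wnt. No explants kept without stimulation to Day 12 or Day 15 were among the libraries. In differences between days, the stimulation therefore cannot be told apart from time, explant culture and medium.

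Crystallins are the soluble proteins that fill lens fibre cells and give the lens its refractive power. The α-crystallins Cryaa and Cryab are small heat shock proteins that hold unfolding proteins in solution, and Cryab is also made in muscle, glia and other stressed tissues. The β- and γ-crystallins (the acidic Cryba and basic Crybb genes, and Crygs) are built from Greek key folds and are best known from the lens, although several are also made in retina and pigment epithelium. Crym is a crystallin only by name: in some marsupials it serves as a lens protein, and in mice it is a ketimine reductase that binds thyroid hormone in the cytosol.

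The sequence upstream of 3 of the genes is shown because Cryba2 and Crybb1 were the β-crystallins that moved most, and Cryba4, the neighbour of Crybb1 on chromosome 5, was almost silent. Each run is the 250 bases before the RefSeq transcription start, read 5′ to 3′ on the gene's strand. The capitals mark TGCTGA on either strand, a half-site for Maf proteins, the lens bZIP activators of crystallin promoters. They also mark GCTGANNCAGC on either strand (an arm of the Maf recognition element facing a shortened arm, CAGC). The box that positions the start in many promoters is marked too. The letters searched for that TATA box, on either strand, were CTATAAA. In Crybb1 the longer Maf element overlaps a copy of the half-site. In build GRCm38.p6 they lie at chr1:74893144-74893393 (Cryba2, minus strand), chr5:112255570-112255819 (Crybb1, plus strand) and chr5:112252519-112252768 (Cryba4, minus strand).
Cryba2: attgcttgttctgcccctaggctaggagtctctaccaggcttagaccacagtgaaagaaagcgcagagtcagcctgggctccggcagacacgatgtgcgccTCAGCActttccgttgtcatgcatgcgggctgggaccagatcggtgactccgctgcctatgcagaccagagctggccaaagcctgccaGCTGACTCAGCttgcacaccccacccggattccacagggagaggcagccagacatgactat
Crybb1: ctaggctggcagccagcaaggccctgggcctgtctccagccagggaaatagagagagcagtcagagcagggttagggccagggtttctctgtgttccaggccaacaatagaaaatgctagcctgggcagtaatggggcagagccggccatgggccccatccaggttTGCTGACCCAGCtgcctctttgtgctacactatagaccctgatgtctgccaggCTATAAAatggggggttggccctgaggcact
Cryba4: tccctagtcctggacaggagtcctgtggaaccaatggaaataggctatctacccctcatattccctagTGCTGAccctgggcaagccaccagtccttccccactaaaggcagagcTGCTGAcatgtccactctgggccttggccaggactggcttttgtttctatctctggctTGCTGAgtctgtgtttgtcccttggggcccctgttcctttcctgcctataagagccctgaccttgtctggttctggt
The longer element stood at bases 61 to 51 before the start of Cryba2, as GCTGACTCAGC, and at bases 83 to 73 before the start of Crybb1, as GCTGACCCAGC. The Cryba2 copy matched on both strands. The Crybb1 copy matched on the printed strand only, so that its facing arm was not complete. This longer element was in 2 of the 8 crystallin windows and in 0.417% of 32851 windows of the same length, but it was chosen for the search after these letters had been seen. The half-site TGCTGA was in 7 of the 8 crystallin windows and in 16.1% of all windows, and the Cryba4 window held 3 copies of it. CTATAAA was in the windows of Crybb1, Cryba1 and Crygs, and in 3.21% of all windows. The table had no window for Cryab and Crym. A match of letters is a description of the window only.

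The libraries held 12556998 to 16175450 reads assigned to genes, so that 1 read was worth 0.062 to 0.0764 CPM (reads per 1e+06 on the authors' scaled libraries), and values near that step rest on single reads. Intervals given for low values cover counting error only. The labelled tissues were checked against marker genes. Six6, a neural retina factor, was at 215.9 to 231.9 CPM in the Day 15 +Fgf libraries and at 2.16 CPM or less in the 3 libraries of Day 15 +Wnt. The melanosome gene Pmel reached 3112 to 4204 CPM with Wnt at Day 15, against 95.4 to 128.3 CPM with Fgf. Rpe65, the visual cycle isomerase of mature pigment epithelium, had no read in the Day 15 +Wnt libraries, and Best1 was at 0.281 CPM or less there. In these bulk samples, fewer cells of a type and less RNA per cell cannot be told apart.

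Summed over the 10 genes, crystallin RNA stood at 7.72 to 9.4 CPM in the Day 10 libraries, 6.72 to 8.63 CPM in Day 12 +Fgf and 7.86 to 9.12 CPM in Day 12 +Wnt. At Day 15 the sum was 17.4 to 25.1 CPM with Fgf and 69.6 to 117.2 CPM with Wnt stimulation. The leading gene changed with the group. Cryab gave 65% to 70.3% of the summed crystallin CPM at Day 10, Crybb1 gave 43.5% and 57% in 2 of the 3 Day 12 +Wnt libraries (Cryab led in the other), Crym gave 48.8% to 58.3% in Day 15 +Fgf, and Cryab gave 36.8% to 47.4% in Day 15 +Wnt. Per kilobase of transcript, the Day 15 +Wnt order of mean level was Cryab (44.5 ± 8.56 CPM per kb, SD, n = 3), Cryba2 (36.5 ± 14.9) and Crybb1 (25.5 ± 7.87), and the libraries of these neighbours overlapped. Crym (1.63 ± 0.641 CPM per kb), Crygs (1.36 ± 0.785) and Cryba1 (0.608 ± 0.327) came well below them. In Day 15 +Fgf, Cryab (8.98 ± 0.982 CPM per kb) and Crym (8.34 ± 1.95) overlapped, and Cryba1 (1.7 ± 0.105) stood next.

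**Figure D1:**
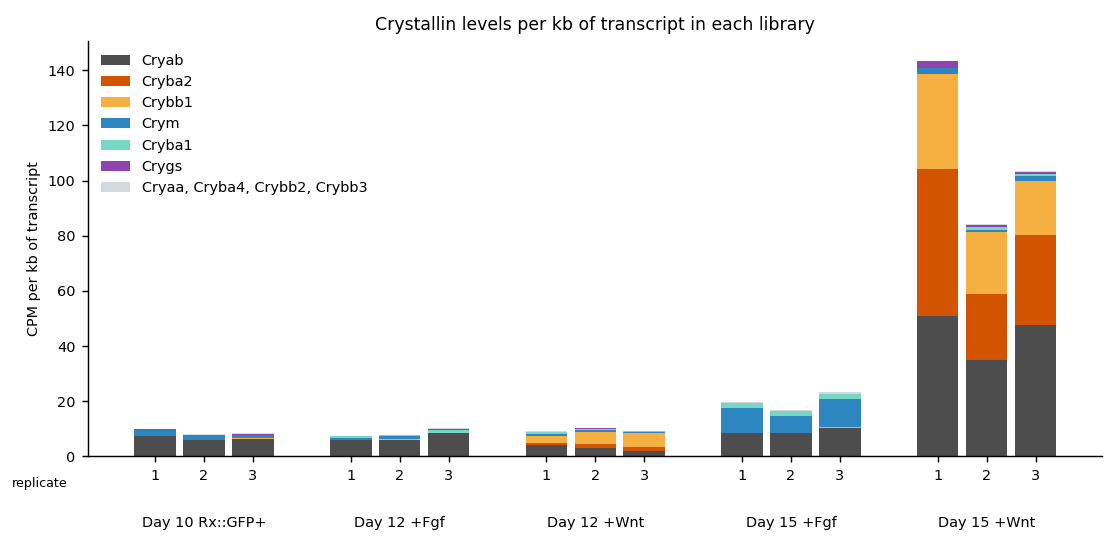
Stacked bars give the CPM per kb of transcript of the crystallin genes in each of the 15 libraries (x axis: replicate within group; y axis: CPM per kb). Cryab, Cryba2 and Crybb1 fill the 3 Day 15 +Wnt bars, while Cryab and Crym make up most of the 3 Day 15 +Fgf bars.

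Of the α-crystallins, Cryab (chromosome 9, 50751325 to 50756636, plus strand in GRCm38) was read in every library. It was at 6.27, 5.08 and 5.43 CPM at Day 10, 4.94, 5.16 and 7.09 CPM in Day 12 +Fgf, and 3.46, 2.51 and 1.79 CPM in Day 12 +Wnt. At Day 15 it was at 7.15, 7.07 and 8.55 CPM with Fgf and at 43.2, 29.5 and 40.3 CPM with Wnt stimulation. Cryab thus went through a low in the +Wnt tissue before its highest level, and both the Day 12 and the Day 15 +Wnt libraries lay clear of every other group. Against Day 10, it fell in Day 12 +Wnt by 1.07 on the log2 scale (SE 0.20, limma adjusted p = 0.000227). From Day 12 to Day 15 under Wnt stimulation it rose by 3.74 (SE 0.20, limma adjusted p = 1.08e-10). Under Fgf stimulation the same step was 0.40 (SE 0.20, limma adjusted p = 0.0975), and it became 0.56 with an adjusted p of 0.0367 in limma when Day 12 +Fgf replicate 3 was left out. Cryab shares its upstream region head to head with Hspb2, but the listed transcript of Cryab has 0 bases in common with exons of that gene; another Cryab transcript, with an earlier start, overlaps 252 bases (32.6%) of the listed Hspb2 transcript on the other strand, and Hspb2 stayed at 0.868 CPM or less in every library.

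Cryaa (chromosome 17, 31677807 to 31681733), the α-crystallin largely confined to the lens, had 13 reads in the 15 libraries together. It was at 0, 0 and 0.0764 CPM at Day 10, at 0 in all Day 12 libraries, at 0, 0.0687 and 0.636 CPM in Day 15 +Fgf, and at 0.062, 0.0746 and 0 CPM in Day 15 +Wnt. Day 15 +Fgf replicate 3 held 9 of the 13 reads, and no pair of groups compared was apart. An antisense transcript covers 194 bases (15.3%) of its listed transcript, and the strand setting of the counting is not given in the sources used here. Cryaa did not pass the filter of 1 CPM in at least 3 libraries and was not tested in the main fit.

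The acidic β-crystallin Cryba2 (chromosome 1, 74889934 to 74893143, minus strand) had no read in the 3 Day 10 libraries. In Day 12 +Fgf it was at 0.0634, 0 and 0 CPM, and in Day 15 +Fgf at 0, 0 and 0.0707 CPM, which is 1 read in each of these groups. In Day 12 +Wnt it was at 0.629, 0.974 and 0.794 CPM, and in Day 15 +Wnt at 38.2, 17.3 and 23.4 CPM. Both +Wnt groups lay above all the other libraries and did not overlap each other. Against a limit of 3 reads per library for the Day 10 zeros, the mean level was at least 3.78-fold higher in Day 12 +Wnt and at least 124-fold higher in Day 15 +Wnt. Under Wnt stimulation Cryba2 rose from Day 12 to Day 15 by 4.53 on the log2 scale (SE 0.27, limma adjusted p = 3.17e-10), or 34-fold by reads (95% counting interval 24.4 to 48.8). At Day 15 it had 1181 reads with Wnt and 1 read with Fgf stimulation, a ratio of 1140 with a counting interval of 204 to 45100. Cryba2 passed the filter only through its Day 15 +Wnt libraries.

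Cryba1 (chromosome 11, 77718615 to 77725283, minus strand), which encodes the β-A3/A1 proteins of lens and retinal glia, took the other course. It was at 0, 0 and 0.0764 CPM at Day 10, at 0.38, 0.382 and 0.894 CPM in Day 12 +Fgf, and at 0.566, 0.209 and 0.265 CPM in Day 12 +Wnt. At Day 15 it was at 1.25, 1.3 and 1.41 CPM with Fgf and at 0.186, 0.671 and 0.561 CPM with Wnt stimulation. The Day 15 +Fgf libraries were the highest of the 15, and the Day 15 +Wnt libraries overlapped both Day 12 groups. Cryba1 rose from Day 10 to Day 12 with Fgf by 1.34 on the log2 scale (SE 0.32, limma adjusted p = 0.00181) and with Wnt by 0.96 (SE 0.32, limma adjusted p = 0.0152). The +Wnt call was lost without Day 12 +Wnt replicate 1 (0.73, limma adjusted p = 0.08), with a pseudocount of 1 (0.38, limma adjusted p = 0.056) and with the RNA integrity number as a covariate (0.78, limma adjusted p = 0.134), and the +Fgf call with that covariate (1.12, limma adjusted p = 0.0672). At Day 15 it was higher with Fgf than with Wnt by 1.13 (SE 0.32, limma adjusted p = 0.00446). These levels rest on 3 to 20 reads in each of those libraries, and Cryba1 passed the filter only through its Day 15 +Fgf libraries. It lies within Nufip2 on the other strand, with 0 exon bases shared.

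Cryba4 (chromosome 5, 112246493 to 112252518, minus strand) had 4 reads in all, 1 in a Day 12 +Fgf library and 3 in Day 15 +Wnt replicate 1. It starts 3296 bases from Crybb1 and is transcribed away from it, so that in Day 15 +Wnt a gene with 1003 reads stood beside one with 3.

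The basic β-crystallin Crybb1 (chromosome 5, 112255815 to 112269585, plus strand) had 1 read in each Day 10 library, at 0.0681, 0.0668 and 0.0764 CPM. It was at 0.127, 0.0637 and 0 CPM in Day 12 +Fgf and at 0.147, 0.206 and 0.495 CPM in Day 15 +Fgf. In Day 12 +Wnt it was at 2.26, 3.97 and 4.57 CPM, and in Day 15 +Wnt at 30.4, 19.8 and 17.3 CPM. It passed the filter only through these +Wnt libraries. Crybb1 had 162 reads in Day 12 +Wnt against 3 at Day 10, a ratio of 50.8 with a counting interval of 17.1 to 249. It rose from Day 10 to Day 12 +Wnt by 3.34 on the log2 scale (SE 0.29, limma adjusted p = 5.85e-08) and again to Day 15 by 2.56 (SE 0.29, limma adjusted p = 6.56e-07). From Day 12 to Day 15 with Fgf, the difference of 0.65 (SE 0.29, limma adjusted p = 0.0629) did not pass. That difference passed without Day 12 +Wnt replicate 1 (0.65, limma adjusted p = 0.0444) or Day 15 +Fgf replicate 1 (0.82, limma adjusted p = 0.0358), and with a pseudocount of 0.05 (1.59, limma adjusted p = 0.00947), and it compares 12 reads with 3.

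The other basic genes were silent or close to it. Crybb2 (chromosome 5, 113058258 to 113070117, minus strand), among the most abundant proteins of the mature lens, had 0 reads in all 15 libraries. With 3 libraries a group, a count of 0 allows a mean of up to 0.0783 to 0.0873 CPM (upper end of the exact 95% Poisson interval). Crybb3 (chromosome 5, 113075839 to 113081584, minus strand) lies 5721 bases from Crybb2 and had 33 reads in all, 0 to 4 in a library. Its group means ran from 0.064 ± 0.0629 CPM in Day 12 +Wnt to 0.236 ± 0.0339 CPM in Day 15 +Fgf (SD, n = 3). In CPM, the Day 15 +Fgf libraries of Crybb3 lay just above those of Day 15 +Wnt and Day 10, but in reads they touched. They held 3 to 4 reads each, against 1 to 3 in each library of the other groups. Both pairs had an exact two-sided permutation p = 0.1, the smallest that 3 against 3 libraries can give. The ratios of reads were 1.73 to Day 15 +Wnt (counting interval 0.568 to 5.78) and 1.68 to Day 10 (0.555 to 5.64), and both intervals include no difference.

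Crygs (chromosome 16, 22805203 to 22811577, minus strand), the γ-crystallin of the lens cortex, fell below the filter but was not even across groups. It was at 0.204, 0.0668 and 0.153 CPM at Day 10, at 0.0634, 0.0637 and 0.0639 CPM in Day 12 +Fgf, and at 0, 0.209 and 0.0662 CPM in Day 12 +Wnt. At Day 15 it was at 0.0737, 0 and 0 CPM with Fgf and at 1.99, 0.82 and 0.772 CPM with Wnt stimulation. Of its 68 reads, 54 were in the Day 15 +Wnt libraries, each of which lay above all other libraries. The ratio of reads between Day 15 +Wnt and Day 12 +Wnt was 14 (counting interval 5.16 to 53.2), and an exact two-sided permutation test of the 3 against 3 libraries gave p = 0.1, its smallest possible value. With no filter on low values (18640 entries tested), the Day 15 difference, +Fgf minus +Wnt, was -2.12 on the log2 scale (SE 0.25, limma adjusted p = 3.6e-06).

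Crym (chromosome 7, 120186380 to 120202111, minus strand) was the one member with its highest level under Fgf stimulation and at more than 5 CPM. It was at 2.79, 2.41 and 1.76 CPM at Day 10, 0.951, 1.47 and 0.256 CPM in Day 12 +Fgf, and 0.818, 1.25 and 0.463 CPM in Day 12 +Wnt. At Day 15 it was at 12.4, 8.52 and 13.7 CPM with Fgf and at 2.98, 1.27 and 2.53 CPM with Wnt stimulation. Crym was therefore lower in every Day 12 library than in any Day 10 library, whichever the stimulation, and the Day 15 +Fgf libraries lay above all others. It fell from Day 10 to Day 12 by 1.27 with Fgf (SE 0.38, limma adjusted p = 0.0095) and by 1.23 with Wnt (SE 0.38, limma adjusted p = 0.0102). Both calls were lost without 1 library, with -0.80 (limma adjusted p = 0.0641) without Day 12 +Fgf replicate 3 and -0.97 (limma adjusted p = 0.0574) without Day 12 +Wnt replicate 3, and the +Fgf call also with the RNA integrity number as a covariate (-1.43, limma adjusted p = 0.0547). From Day 12 to Day 15, Crym rose with Fgf by 3.44 (SE 0.38, limma adjusted p = 9.81e-07). With Wnt the rise of 1.15 (SE 0.38, limma adjusted p = 0.013) lost its call without Day 12 +Wnt replicate 3 (0.89, limma adjusted p = 0.0704) or Day 15 +Wnt replicate 1 (0.94, limma adjusted p = 0.0624), and under quantile normalization (0.48, limma adjusted p = 0.281).

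**Figure D2:**
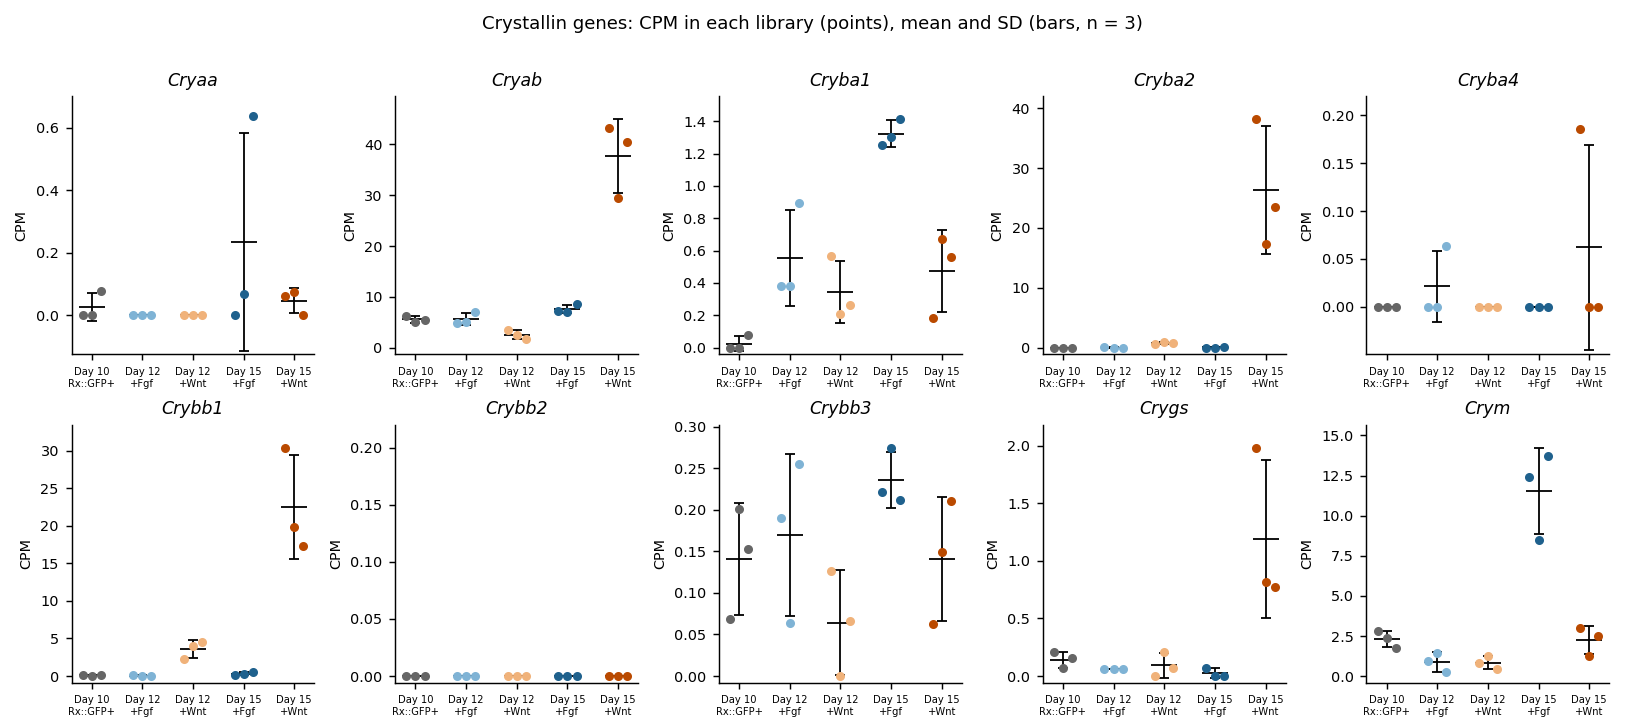
Each panel gives 1 crystallin gene, with points for the CPM of the 15 libraries in 5 groups and bars for the group mean and SD (n = 3); each y axis is linear and scaled to its gene. Cryab, Cryba2, Crybb1 and Crygs are highest in the 3 Day 15 +Wnt libraries, Crym and Cryba1 in the 3 Day 15 +Fgf libraries, and Crybb2 is at 0 throughout.

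Across the whole table, differences of log2(CPM + 0.3) were tested with limma in 1 fit of 5 group means to the 15 libraries, for 13845 entries, with Benjamini-Hochberg adjustment and a threshold of 0.05; 5 of the 10 crystallins (Cryab, Cryba1, Cryba2, Crybb1 and Crym) were among them. The filter takes genes that are high in some group, so that counts over these 5 describe them and are no measure of the family. From Day 10 to Day 12 with Fgf, Cryba1 rose and Crym fell, 2 of 5 against 55.7% of all entries tested (27.9% higher and 27.8% lower). From Day 10 to Day 12 with Wnt, Cryba1, Cryba2 and Crybb1 rose and Cryab and Crym fell, 5 of 5 against 60.2% of all entries (30.6% higher and 29.6% lower). These comparisons share the Day 10 libraries.

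Between Day 12 and Day 15, 2 of 5 crystallins rose with Fgf (Crym, and Cryba1 by 0.98, SE 0.32, limma adjusted p = 0.014), against 57.1% of all entries called (27.2% higher and 29.9% lower), and 4 of 5 rose with Wnt (Cryab, Cryba2, Crybb1 and Crym), against 68% (32.5% higher and 35.5% lower). The call of Cryba1 with Fgf was lost without Day 12 +Fgf replicate 1 (0.85, limma adjusted p = 0.0603) or replicate 2 (0.85, limma adjusted p = 0.055), with a pseudocount of 0.05 (1.29, limma adjusted p = 0.0598) and with the RNA integrity number as a covariate (1.35, limma adjusted p = 0.145). Cryba1 in the +Wnt tissue showed a difference of 0.24 (SE 0.32, limma adjusted p = 0.526). Cryba2 had passed the filter only through Day 15 +Wnt libraries and Cryba1 only through Day 15 +Fgf libraries. The filter thus favoured their rises in those tissues, and the counts are no result about the family.

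Between stimulations at Day 12, Cryab was higher with Fgf (log2 difference, +Fgf minus +Wnt, of 1.09, SE 0.20, limma adjusted p = 0.000226), and Cryba2 and Crybb1 were lower (-1.77, SE 0.27, and -3.39, SE 0.29, limma adjusted p = 3.1e-05 and 4.38e-08). That is 3 of 5 tested, against 51.5% of all entries (26.3% higher and 25.2% lower). Cryba1 (0.39, SE 0.32) and Crym (-0.04, SE 0.38) did not pass the test in limma, with adjusted p = 0.328 and 0.944.

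At Day 15, each of the 5 tested crystallins differed between stimulations, against 68.7% of all entries tested (38% higher and 30.6% lower with Fgf). Cryba2 and Crybb1 had passed the filter only through +Wnt libraries, and Cryba1 only through Day 15 +Fgf libraries. The filter thus favoured a Day 15 difference in these genes, and the count is no result about the family. Cryab was now lower with Fgf, by -2.25 (SE 0.20, limma adjusted p = 3.35e-08), the opposite of its direction at Day 12. Cryba2 (-6.29, SE 0.27, limma adjusted p = 3.22e-12) and Crybb1 (-5.30, SE 0.29, limma adjusted p = 7.05e-11) were lower with Fgf, and Cryba1 and Crym (2.25, SE 0.38, limma adjusted p = 5.67e-05) were higher. With the RNA integrity number as a covariate, Cryba1 lost its Day 15 call (1.46, limma adjusted p = 0.0587), and integrity was lower in every Day 15 +Fgf library than in any Day 15 +Wnt library. Because 0.3 CPM is added before the logarithm, the differences of Cryba2 and Crybb1 understate their ratios, and edgeR on recovered reads gave -9.68 and -6.27.

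The change from Day 12 to Day 15 was itself compared between stimulations as an interaction in the same fit. The change with Fgf minus that with Wnt was -3.34 for Cryab (SE 0.28, limma adjusted p = 9.15e-08), -4.52 for Cryba2 (SE 0.38, limma adjusted p = 7.64e-08), -1.91 for Crybb1 (SE 0.41, limma adjusted p = 0.000992) and 2.29 for Crym (SE 0.54, limma adjusted p = 0.00219). These are 4 of 5 tested, against 47.9% of all entries (27% higher and 20.9% lower), and Cryba1 did not pass (0.75, SE 0.45, limma adjusted p = 0.182). Cryba2 had passed the filter only through Day 15 +Wnt libraries, Crybb1 only through +Wnt libraries and Cryba1 only through Day 15 +Fgf libraries. The filter thus favoured a differing change in these genes, and the count is no result about the family. The calls of Cryba2 and Crybb1 depended on the scale: edgeR on the recovered reads gave -4.92 for Cryba2 (adjusted p = 0.239) and -0.63 for Crybb1 (adjusted p = 0.77), where the Fgf side of both rests on 1 to 12 reads a group. Crybb1 also lost its call with a pseudocount of 0.05 (-1.05, limma adjusted p = 0.216) and with the RNA integrity number as a covariate (-1.80, limma adjusted p = 0.0592).

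**Figure D3:**
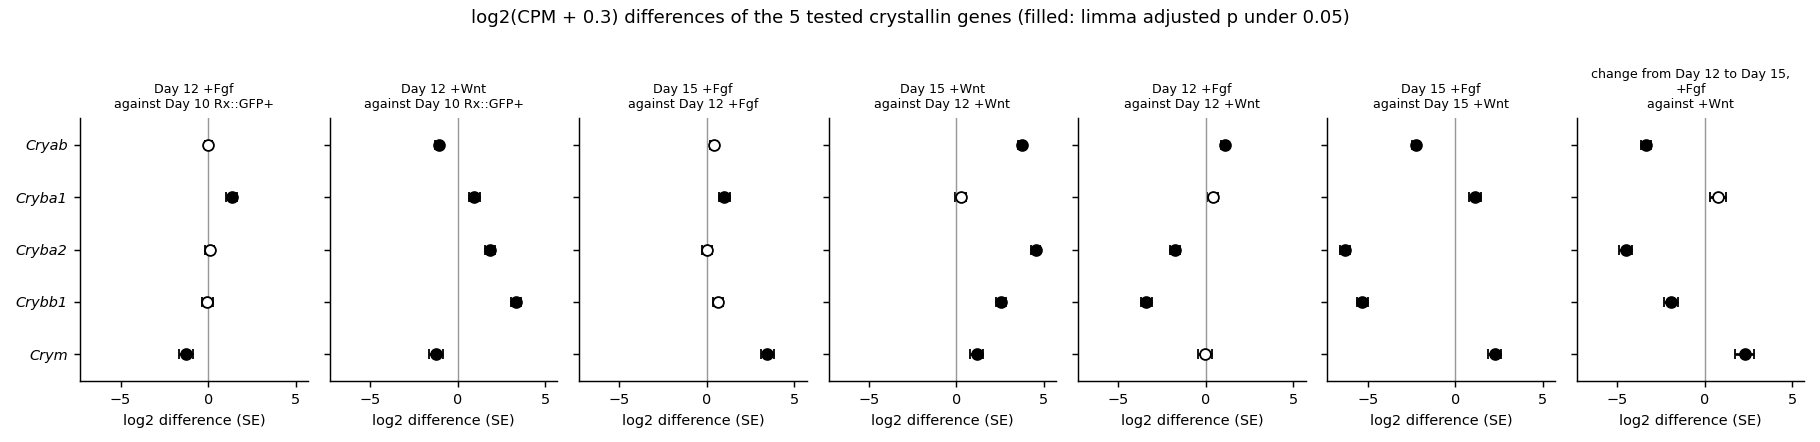
Each of 7 panels is 1 comparison, with the log2(CPM + 0.3) difference (x axis) of the 5 tested crystallin genes as points and SE as bars; filled points have a limma adjusted p under 0.05. Cryab sits right of 0 at Day 12 (1.09) and left of 0 at Day 15 (-2.25) between stimulations.

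Genes of lens cells were read from a list of 14, of which 6 passed the filter. Their summed level was 32.9 to 38.7 CPM in the Day 15 +Wnt libraries, against 8.11 to 8.79 CPM in Day 15 +Fgf, 10.7 to 12.8 CPM in Day 12 +Wnt, 5.7 to 7.41 CPM in Day 12 +Fgf and 5.04 to 6.75 CPM at Day 10. At Day 15, the median log2 difference of the 6 was -2.24 beside 0.05 over all entries. With Fgf, 4 of the 6 were lower, beside 30.6% of all entries, and not all moved that way. The leading one was Mip, the water channel of lens fibres, at 18.6, 13.5 and 15.2 CPM in Day 15 +Wnt and 1.7, 2.2 and 1.48 CPM in Day 15 +Fgf (-2.94, SE 0.23, limma adjusted p = 7.26e-09). An opposite-strand transcript covers 57% of Mip. The other 3, named after their values were seen, were the beaded filament gene Bfsp2 (-2.28, SE 0.17, with 12.1% of its transcript under an opposite-strand RNA), the lens gap junction gene Gja3 (-2.42, SE 0.28) and the heat shock factor Hsf4 (-2.19, SE 0.27), with limma adjusted p = 3.04e-09, 9.61e-07 and 1.92e-06. Foxe3, Birc7, Lgsn, Dnase2b, Grifin and Lctl, which include the factor that marks lens epithelium and the nuclease that clears fibre nuclei, were at or near 0 in Day 15 +Wnt. The part of lens-like cells in the crystallin levels was not tested.

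**Figure D4:**
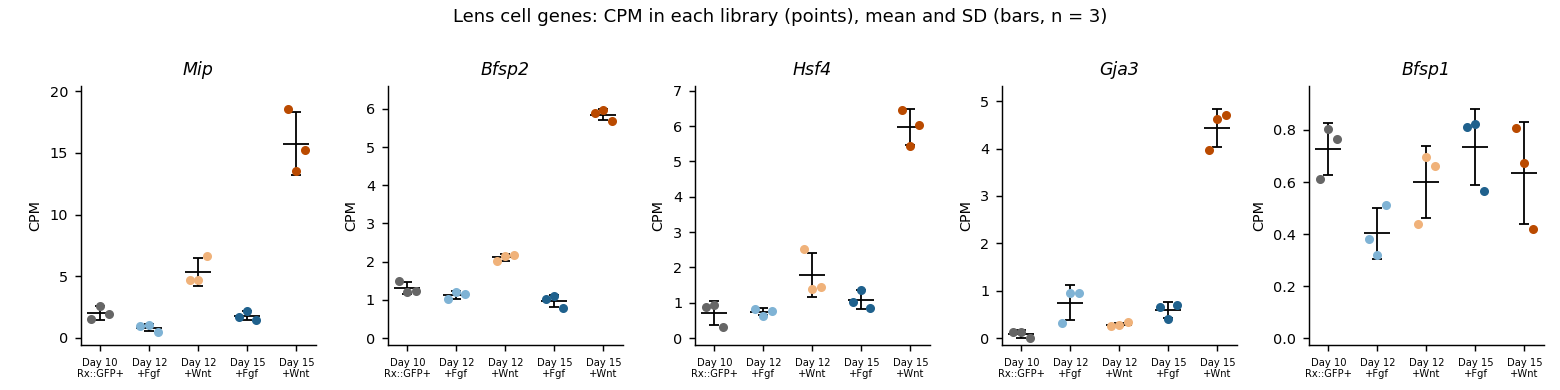
Panels give the CPM (linear y axes, scaled to each gene) of 5 genes of the lens list in the 15 libraries, with points for libraries and bars for group mean and SD (n = 3). Mip, Bfsp2, Hsf4 and Gja3 are highest in the 3 Day 15 +Wnt libraries, while Bfsp1 stays under 1 CPM in every library.

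Other cell types moved with the same groups. Of all entries tested at Day 15, 38% were called higher and 30.6% lower with Fgf. The 11 pigment epithelium genes summed to 1031 to 1392 CPM at Day 10, 359 to 406.2 CPM in Day 12 +Fgf, 1412 to 1822 CPM in Day 12 +Wnt, 346.2 to 420 CPM in Day 15 +Fgf and 5526 to 7113 CPM in Day 15 +Wnt, and 9 of 9 tested were lower with Fgf at Day 15 (median -3.95). The 7 genes of neural crest and mesenchyme summed to 46.9 to 95.8 CPM in the Day 10 and Day 12 libraries, 58.2 to 68.5 CPM in Day 15 +Fgf and 192.5 to 224.4 CPM in Day 15 +Wnt, with 5 of 5 tested lower with Fgf (median -1.49), among them Col1a1 (-2.57, SE 0.24) and Pdgfra (-2.16, SE 0.26), with limma adjusted p = 5.54e-08 and 1.27e-06. The crest factors Sox10 and Foxd3 had at most 3 reads in every Day 15 +Wnt library. The 10 neural retina genes summed to 1276 to 1457 CPM in the Day 10 and Day 12 +Fgf libraries, 415.1 to 441.1 CPM in Day 12 +Wnt, 1952 to 2127 CPM in Day 15 +Fgf and 260.6 to 301.5 CPM in Day 15 +Wnt, with 10 of 10 higher with Fgf (median 5.69). The 8 ciliary margin genes were split, with 3 higher and 5 lower with Fgf. Of the 8 genes of striated muscle, a tissue rich in Cryab, 3 passed the filter. All 8 summed to 0.447 to 1.19 CPM in Day 15 +Wnt and to 1.85 to 2.97 CPM in Day 12 +Wnt and Day 15 +Fgf. Their sum was 7.15 to 12.2 CPM at Day 10 and 18.9 to 23.1 CPM in Day 12 +Fgf. The part of these cell types in the crystallin differences was not tested.

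The relatives of Cryab did not move as 1 group. Of 7 other small heat shock protein genes, 3 passed the filter. Hspb8, the partner of Bag3 in clearing misfolded proteins, was at 74.5, 55.9 and 60.5 CPM in Day 15 +Wnt and 9, 10.2 and 12.3 CPM in Day 15 +Fgf (-2.57, SE 0.12, limma adjusted p = 7.06e-12). Hspb6 showed a Day 15 difference of -0.08 (SE 0.14) and Hspb1 of -0.73 (SE 0.37), with limma adjusted p = 0.632 and 0.0861. Over the 3 later days with Fgf, Hspb1 fell by 2.31 (SE 0.37, limma adjusted p = 4.84e-05), Hspb8 fell by 1.72 (SE 0.12, limma adjusted p = 3.28e-09) and Hspb6 rose by 0.96 (SE 0.14, limma adjusted p = 2.19e-05).

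Of 13 other crystallins and crystallin-named enzymes, 7 passed the filter. At Day 15, 3 were higher and 4 lower with Fgf (median -0.39), beside 38% and 30.6% of all entries. Crybg3, a large protein with βγ folds outside the lens family, was at 52.6, 50.3 and 40.4 CPM in Day 15 +Fgf and 15.6, 12.3 and 12.3 CPM in Day 15 +Wnt (1.81, SE 0.12, limma adjusted p = 1.52e-09), with 18.1% of its transcript overlapped by Riox2 on the other strand. The quinone reductase Cryz was lower with Fgf (-0.39, SE 0.07, limma adjusted p = 6.05e-05), at 54 CPM against 71 CPM on average. The γ-crystallins of the lens nucleus, Cryga, Crygb, Crygc, Crygd and Crygf, were at 0.255 CPM or less in every library. Their near-identical neighbour Cryge, named after its values were seen, was at 5.35 to 7.36 CPM at Day 10. In Day 12 +Fgf it was at 3.8 to 4.22 CPM, and in Day 12 +Wnt at 4.4 to 6.33 CPM. In Day 15 +Wnt it was at 2.54 to 2.67 CPM, and in Day 15 +Fgf at 0.0737 to 0.565 CPM. This distribution is uncertain, as reads can be shared among these copies, and such sharing was not tested.

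Transcription factors that bind crystallin promoters were read from a list of 18, of which 17 passed the filter. At Day 15, 11 of the 17 were higher and 3 lower with Fgf, beside 38% and 30.6% of all entries, with a median of 0.58 beside 0.05 over all entries. Six3 was at 300.4 CPM with Fgf and 29.5 CPM with Wnt on average (3.33, SE 0.08, limma adjusted p = 6.16e-15), and Prox1, needed for lens fibre elongation, was at 24.8 and 5.85 CPM (2.03, SE 0.19, limma adjusted p = 4.94e-08). Sox1, a lens fibre factor and activator of γ-crystallins, was lower with Fgf (-1.85, SE 0.34, limma adjusted p = 0.000121). With Wnt, 4 of the factors rose between Day 12 and Day 15 and 6 fell, beside 32.5% and 35.5% of all entries. Prox1 changed by 1.26 (SE 0.19, limma adjusted p = 1.35e-05) and Sox3 by -1.61 (SE 0.12, limma adjusted p = 8.07e-09).

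Thyroid hormone genes were read beside Crym from a list of 12, of which 11 passed the filter. At Day 15, 4 were higher and 7 lower with Fgf (median -0.58), beside 38% and 30.6% of all entries. Dio3, the deiodinase that inactivates thyroid hormone, was at 23.2, 22 and 19.5 CPM in Day 15 +Fgf and 0.372, 0.298 and 0.351 CPM in Day 15 +Wnt (5.09, SE 0.17, limma adjusted p = 1.7e-13), the same direction as Crym on that day. At Day 12, Dio3 already differed between stimulations (4.58, SE 0.17, limma adjusted p = 1.87e-12), while Crym did not pass. Dio2, the activating deiodinase, was at 3.25 and 16.5 CPM on average (-2.30, SE 0.27, limma adjusted p = 1.29e-06), and the transporter Slc16a10 at 2.72 and 28.1 CPM (-3.28, SE 0.28, limma adjusted p = 1.96e-08).

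The genes whose log2 values over the 15 libraries were most like those of the crystallins above 5 CPM were found by Pearson correlation, as a description: the libraries share 5 groups, and a difference between a few groups sets most of each r. Cryba2 and Crybb1 had r = 0.957 with each other, Cryab had 0.76 with Cryba2 and 0.566 with Crybb1, and Crym had -0.106 with Cryba2. Nearest to Cryab were Sdc4 (r = 0.976), Timp3 (0.969) and Lgi1 (0.965). Nearest to Cryba2 were Sirpa (0.994), Ctsb (0.991) and Stxbp5l (0.989), and nearest to Crybb1 were Mgst1 (0.988), Ttl (0.987) and Serpinb1a (0.983). Crym had looser neighbours in Ecel1 (0.926), Begain (0.912) and Tmem181c-ps (0.907). By Spearman correlation, none of the 3 genes nearest to Cryab, Cryba2 and Crybb1 were the same, and Begain alone was shared for Crym.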

How the data were processed

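Polyadenylated RNA of explants was sequenced from strand-marking libraries. Per the labels and the study's methods, the authors aligned reads with TopHat2 2.0.8b to mm10, counted them per gene with Cuffdiff (Cufflinks 2.1.1) and scaled them with edgeR 3.2.4; the strand setting of the counting is not given in the sources used here. The deposited values are a normalized signal in CPM, not counts. All nonzero values were whole multiples of 1 read (100% within 0.01 reads), so that reads were recovered. The smallest two-sided exact permutation p for 3 against 3 libraries is 0.1.

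Groups and replicates follow the sample titles. The main test was limma 3.58.1 (R 4.3.3) on log2(value + 0.3), with a trend, over the 13845 entries that reached 1 CPM, on columns rescaled to equal totals, in 3 or more libraries. In place of the count model of the study's methods, edgeR 4.0.16 on recovered reads was an alternative, calling 5258 entries higher and 4241 lower at Day 15 with Fgf against 5267 and 4238 by limma. The scripts were tested on simulated data. The 10 members and all gene lists were chosen with earlier results of these data known. Named from the lists were called genes with a group mean of 10 CPM, at most 4 a comparison. Coordinates and transcript lengths are from GENCODE vM21, and upstream sequences are from RefSeq (8 of 10 genes matched). No column of another study was present in the table. Some genes of the lists are not reported here by name.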

Additional observations from a re-analysis of the deposited data

Results flagged for a closer look

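For 4 crystallin genes the change from Day 12 to Day 15 differed between stimulations by a limma interaction test, and each is given as a value (Fgf change minus Wnt change, log2 scale). Cryab had -3.34 (adjusted p = 9.15e-08 in limma), rising in the +Wnt libraries from 1.79 to 3.46 CPM up to 29.5 to 43.2 CPM. Cryba2 had -4.52 (adjusted p = 7.64e-08 in limma) and Crybb1 had -1.91 (adjusted p = 0.000992 in limma), and in edgeR on recovered reads these were -4.92 (adjusted p = 0.239) and -0.63 (adjusted p = 0.77). With the RNA integrity number as a covariate, Crybb1 had -1.80 (adjusted p = 0.0592 in limma). Cryba2 had passed the filter only through Day 15 +Wnt libraries and Crybb1 only through +Wnt libraries, which favoured a differing change in both. Crym had 2.29 (adjusted p = 0.00219 in limma), with its larger rise in the +Fgf libraries.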

How the results depend on the processing

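Each of 35 tested differences of crystallin genes was recomputed under 24 alternatives. No called difference changed direction; 817 recomputed values kept their side of the threshold, 19 lost the call and 4 gained it. With the RNA integrity number as a covariate, the crystallins called from Day 10 to Day 12 with Fgf went from 2 to 0 in limma (2 at an unadjusted p under 0.05; edgeR on recovered reads, run without that covariate, called 2), those from Day 12 to Day 15 with Fgf from 2 to 1, those at Day 15 between stimulations from 5 to 4 and the interactions from 4 to 3. The crystallins called from Day 10 to Day 12 with Wnt went from 5 to 4 under the same covariate. Every Day 15 +Fgf library had a lower integrity number than any Day 15 +Wnt or Day 12 +Fgf library. Every Day 10 library had a lower one than any Day 12 library. The part of RNA quality in the differences was not tested further. Under edgeR the interaction calls went from 4 to 2, namely Cryab and Crym. Leaving out 1 library gave 1 to 2 called from Day 10 to Day 12 with Fgf, 4 to 5 with Wnt, 1 to 3 from Day 12 to Day 15 with Fgf, 3 to 4 with Wnt, 3 at Day 12 and 5 at Day 15 between stimulations, and 4 for the interaction. Quantile normalization took the Day 12 to Day 15 +Wnt difference of Crym to 0.48 (adjusted p = 0.281), and a pseudocount of 0.05 took the interaction of Crybb1 to -1.05 (adjusted p = 0.216); the causes were not tested. The replicate block changed no call of a crystallin gene (35 of 35 the same), and replicate numbers did not pair the samples: deviations of same-numbered libraries correlated from -0.253 to 0.215, and libraries did not all match their own number best. Genes at 1 to 3 reads a library are limited by depth.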
